A study of Homo sapiens with 6 samples.

Results

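The genes described here are 5 facilitative glucose transporters (SLC2A1, SLC2A2, SLC2A3, SLC2A6 and SLC2A8) and 4 kinases that phosphorylate glucose (HK1, HK2, HKDC1 and ADPGK). They were chosen by gene symbol, and all 9 were found among the 60612 rows of the table. RNA was sequenced from SNU-368, an established human cell line that the labels place among liver cancer (HCC) lines, in 6 libraries. Cells of 3 libraries carried a control short hairpin RNA (shCtrl) and cells of the other 3 a hairpin against TFAM (shTFAM), which encodes a protein that coats mitochondrial DNA and starts its transcription. No further allele, agent, time point or clone is named in the labels, and nothing in them tells if replicates came from different cultures. The p-values therefore reflect only the spread among these 6 libraries, which may be technical. In such bulk RNA, fewer cells of a type and less RNA per cell cannot be told apart.

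Glucose crosses the plasma membrane down its gradient through SLC2A (GLUT) proteins, and a hexokinase then adds a phosphate that keeps it in the cell. SLC2A1 (GLUT1) and SLC2A3 (GLUT3) are high-affinity transporters of the cell surface, SLC2A2 (GLUT2) is the low-affinity transporter of hepatocytes, and SLC2A6 and SLC2A8 sit mainly on intracellular membranes. HK1 is the hexokinase of most tissues, HK2 that of muscle, fat and many tumours, and both can dock on the outer mitochondrial membrane. HKDC1 is a relative of HK1 encoded next to it, and ADPGK is unrelated in sequence and uses ADP in place of ATP. SLC2A1, SLC2A3 and HK2 are textbook targets of hypoxia-inducible factors (HIF).

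In shTFAM libraries HK2, SLC2A3, SLC2A1 and HK1 were higher, by 6.89-fold, 4.49-fold, 3.38-fold and 1.77-fold. These were 4 calls among 7 tested genes, where 17.9% of all 14708 tested rows were called, 11.3% higher and 6.59% lower (edgeR's quasi-likelihood test, adjusted p under 0.05). SLC2A6, SLC2A8 and ADPGK did not pass the test. HKDC1 was too low to be tested, and SLC2A2 had no read in any library. HK2 and HK1 stood at similar levels in shCtrl, whereas in shTFAM HK2 made up most of the hexokinase mRNA. The transporter mRNA was dominated by SLC2A1 and SLC2A3 in both groups.

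Libraries held from 43286024 to 61058282 counts, shTFAM 3 being the deepest. TFAM, the target of the hairpin, stood at 13.5, 12.3 and 14.8 FPKM in shCtrl and 10.1, 10.1 and 8.47 FPKM in shTFAM (FPKM scales fragments by gene length and by library size). It changed by -0.42 on the log2 scale (SE 0.107), with an edgeR adjusted p of 0.0377, a call that ended when any 1 library was left out (edgeR adjusted p 0.0676 to 0.0948), when low rows were kept (0.0644) or without shCtrl 3 and shTFAM 3 together (0.0818). Transcripts of mitochondrial DNA took 10.1 to 14.2% of counts in shCtrl and 7.91 to 10.7% in shTFAM, overlapping ranges. Of 11 hepatocyte and liver cancer markers, ALB, AFP, APOA1, TTR and FOXA2 had no read in any library, HNF4A, TF and SERPINA1 stayed under 0.3 FPKM, and KRT8 and KRT18 made up nearly the whole sum. That sum ranged from 225 to 270.1 FPKM in shCtrl and from 269 to 275 in shTFAM. KRT8, an epithelial keratin, was called higher (75.3, 74.0 and 89.3 FPKM in shCtrl, 114, 107 and 123 FPKM in shTFAM, edgeR adjusted p 0.016), and KRT18 was not called (edgeR adjusted p 0.724). The summed level of 5 fibroblast markers ranged from 24.5 to 37.5 FPKM in shCtrl and from 37.3 to 40.8 in shTFAM, most of it COL1A1. DCN and PDGFRB were called higher (edgeR adjusted p 0.00276 and 0.000721). COL1A1 and LUM were not called (edgeR adjusted p 0.779 and 0.0925). COL3A1 was too low to be tested, but held 18, 11 and 16 counts in shCtrl and 263, 257 and 172 in shTFAM. Of 4 immune markers, PTPRC, CD3E and LYZ had no read, and CD68 was called higher (edgeR adjusted p 0.00892). None of 3 endothelial markers was abundant enough to be tested. The part of these markers in the results below was not tested.

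The stretches of sequence before 2 annotated starts of HK2 are shown because HK2 rose most among these genes, and because letters of the HIF core motif occur in both. Sequences are those of RefSeq (GRCh38.p14), which held windows for 8 of the 9 genes. SLC2A3 was not matched. Capitals mark ACGTG or GCGTG on either strand (CACGT and CACGC when read on the opposite strand). CACGTG, the E-box bound by many other factors, holds ACGTG on both strands.
HK2, before the downstream start, chr2:74834920-74835169, plus strand: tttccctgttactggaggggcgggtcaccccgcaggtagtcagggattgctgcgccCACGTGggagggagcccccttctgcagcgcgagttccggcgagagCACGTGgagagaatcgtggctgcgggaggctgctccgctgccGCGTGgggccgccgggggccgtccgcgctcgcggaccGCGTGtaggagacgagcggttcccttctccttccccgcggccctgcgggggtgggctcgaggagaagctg
HK2, before the upstream start, chr2:74834060-74834089, plus strand: cgcagccaatggGCGTGcgCACGTcactga
In the first of these, which lies outside any exon of GENCODE release 29, CACGTG occurs 2 times and GCGTG another 2 times. The window before the upstream start, of which a stretch is shown, holds ACGTG 2 times and GCGTG once. The stretch shown overlaps an exon of GENCODE release 29. Of 35116 RefSeq windows of the same length, 18.5% held ACGTG, 32.2% GCGTG and 6.34% CACGTG. The SLC2A1 window held none of the 3 motifs, and neither did those of SLC2A2, SLC2A8 and HKDC1. The SLC2A6 window held GCGTG 3 times and that of ADPGK once, and of 7 HK1 windows 1 held it once. These matches describe letters in short windows, and say nothing of binding.

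SLC2A1 (ENSG00000117394, chromosome 1, 42925353 to 42958868, minus strand, hg38) stood at 12.8, 18.9 and 16.5 FPKM in shCtrl and at 51.9, 36.3 and 65.3 FPKM in shTFAM. The lowest shTFAM library was above the highest shCtrl library, and shTFAM 2 was the lowest of its group. The log2 fold change was 1.76 (SE 0.251, 95% interval 1.17 to 2.35, edgeR adjusted p 0.00632).

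SLC2A3 (ENSG00000059804, chromosome 12, 7919230 to 7936187, minus strand, hg38), a transporter best known from neurons, stood at 23.8, 24.6 and 16.5 FPKM in shCtrl and at 70.6, 70.1 and 132.8 FPKM in shTFAM. The groups did not overlap, shCtrl 3 being the lowest library and shTFAM 3 the highest by a wide margin. The log2 fold change was 2.17 (SE 0.312, 95% interval 1.43 to 2.90, edgeR adjusted p 0.00643). With shCtrl 3 and shTFAM 3 both left out it was 1.59 (edgeR adjusted p 0.00249). SLC2A3 has a neighbour of related sequence, SLC2A14. Of the 50-base windows of the longest SLC2A3 transcript, 20.3% also occur in SLC2A14 transcripts, so reads from these could be split between the genes. The SLC2A14 row held 65 to 303 counts per library, 0.513 to 2.99% of those of SLC2A3.

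SLC2A2 (ENSG00000163581, chromosome 3, 170996347 to 171026720, minus strand, hg38), the hepatocyte transporter, had 0 counts in each of the 6 libraries. A count of 0 allows up to 3 counts, which corresponds to 0.052 to 0.0677 CPM, the count relative to the size of the library, and covers counting error only. It was thus not detected at this depth, like the hepatocyte genes ALB, AFP and APOA1 above.

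The intracellular transporters were low and did not pass the test. SLC2A6 (ENSG00000160326, chromosome 9, 133471094 to 133479127, minus strand, hg38), found on lysosomal membranes, stood at 2.38, 2.67 and 3.06 FPKM in shCtrl and at 2.21, 2.01 and 1.49 FPKM in shTFAM. The groups did not overlap, but shCtrl 1 and shTFAM 1 were close, and the log2 fold change of -0.43 did not pass (95% interval -0.87 to 0.018, edgeR adjusted p 0.157). SLC2A8 (ENSG00000136856, chromosome 9, 127397138 to 127407898, plus strand, hg38), a transporter of endosomes and lysosomes, stood at 2.29, 2.11 and 1.92 FPKM in shCtrl and at 1.57, 1.56 and 1.45 FPKM in shTFAM. Its groups did not overlap either, and its log2 fold change was -0.38 (95% interval -0.74 to -0.033, edgeR adjusted p 0.117). The interval of each excludes a rise of the size seen for SLC2A1 or SLC2A3.

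**Figure D1:**
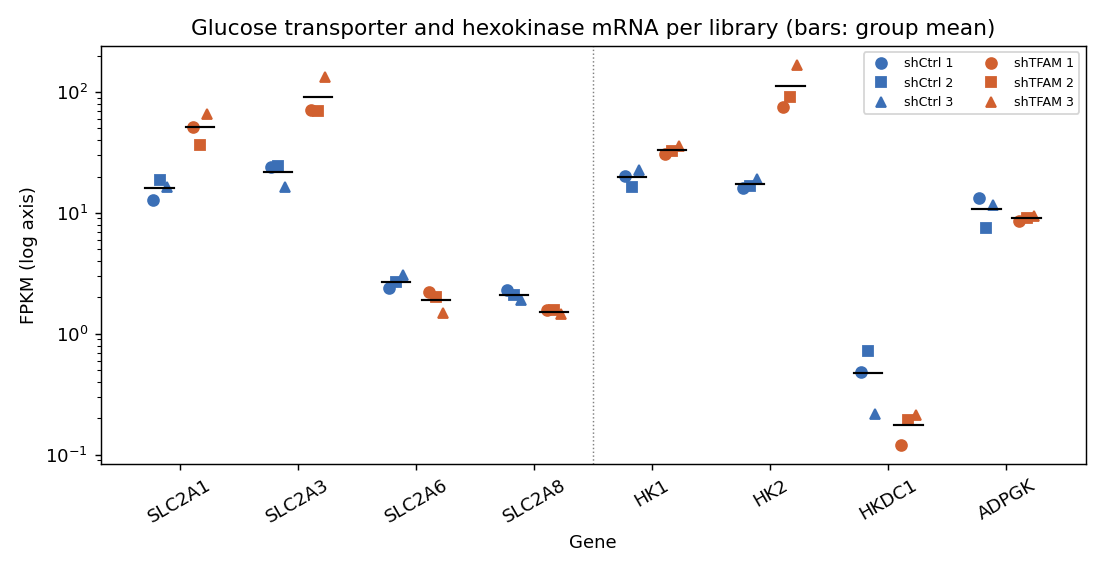
FPKM of 8 of the genes (log axis) in each library, shCtrl in blue and shTFAM in orange, with symbols for replicates and bars for group means; SLC2A2, with no reads, is left out. SLC2A1, SLC2A3, HK1 and HK2 have every shTFAM library above every shCtrl library, and shTFAM 3 is highest for each of the 4.

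Among the kinases HK2 rose most. HK2 (ENSG00000159399, chromosome 2, 74834127 to 74893359, plus strand, hg38) stood at 16.0, 16.7 and 19.1 FPKM in shCtrl and at 75.6, 90.6 and 167.7 FPKM in shTFAM. The shCtrl libraries lay close together, and shTFAM 3 was well above the other shTFAM libraries. The log2 fold change was 2.79 (SE 0.322, 95% interval 2.03 to 3.54, edgeR adjusted p 0.00354), and without shTFAM 3 it was 2.33 (edgeR adjusted p 0.00166). By FPKM HK2 ranked between 2106 and 2390 among the 14708 tested rows in shCtrl libraries and between 148 and 411 in shTFAM libraries. Its pseudogene HK2P1 shares 8.58% of the 50-base windows of the longest HK2 transcript, and held 0.0925 to 0.393% as many counts as HK2.

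HK1 (ENSG00000156515, chromosome 10, 69269984 to 69401884, plus strand, hg38), the hexokinase of most tissues, stood at 20.1, 16.5 and 22.7 FPKM in shCtrl and at 30.5, 32.5 and 35.9 FPKM in shTFAM. The groups did not overlap, and the shTFAM libraries lay close together. The log2 fold change was 0.82 (SE 0.140, 95% interval 0.49 to 1.15, edgeR adjusted p 0.011). It stayed called with any 1 library left out, with edgeR adjusted p from 0.0136 to 0.0414.

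HKDC1 (ENSG00000156510, chromosome 10, 69220332 to 69267552, plus strand, hg38), encoded beside HK1, lay under the minimum of 0.5 FPKM averaged over libraries that was set for testing. It held 106, 183 and 54 counts in shCtrl and 29, 46 and 67 in shTFAM. On the CPM scale the groups overlapped (2.35 ± 1.24 and 0.938 ± 0.277 CPM, SD, n = 3 each), and a two-sided exact permutation test gave p 0.2. Tested without the filter, its log2 fold change was -1.32 (edgeR adjusted p 0.152). No 50-base window of the longest HK1 or HK2 transcript occurs in HKDC1 transcripts, nor any of HK2 in those of HK1.

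ADPGK (ENSG00000159322, chromosome 15, 72751369 to 72785846, minus strand, hg38), the ADP-dependent kinase of the endoplasmic reticulum, stood at 13.4, 7.55 and 11.7 FPKM in shCtrl and at 8.59, 9.05 and 9.46 FPKM in shTFAM. The shTFAM values lay within the shCtrl range, whose lowest library was shCtrl 2. The log2 fold change was -0.18 (95% interval -0.65 to 0.29, edgeR adjusted p 0.564), an interval that excludes a rise of the size seen for HK1. The antisense row ADPGK-AS1, which overlaps it, held at most 21 counts in a library.

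**Figure D2:**
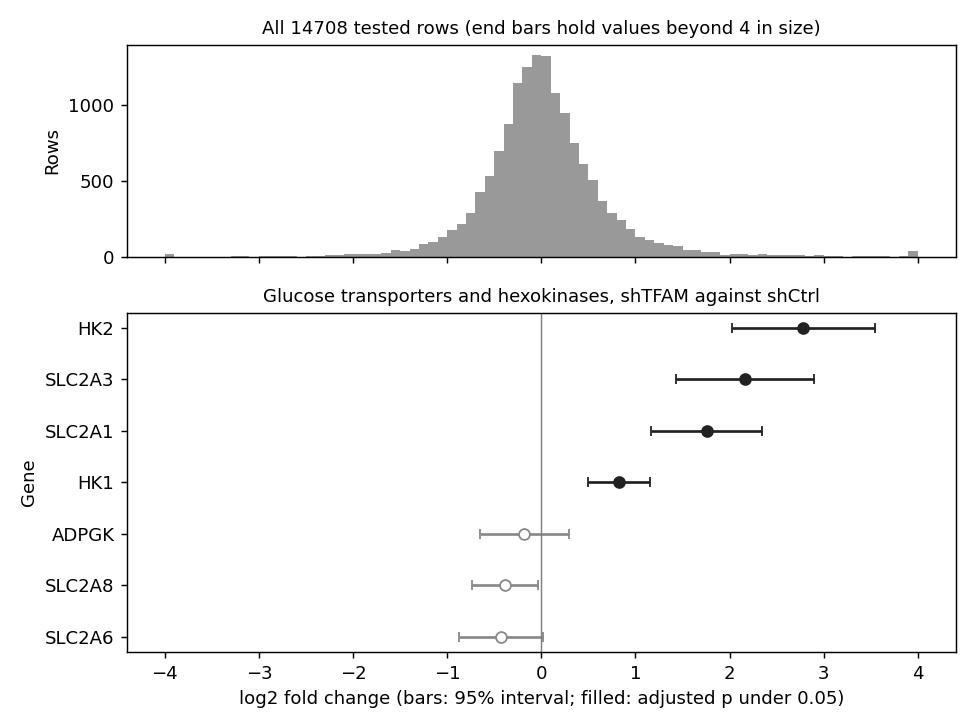
Top, distribution of log2 fold changes (shTFAM against shCtrl) over the 14708 tested rows; bottom, the 7 tested genes with 95% intervals, filled where the edgeR adjusted p was under 0.05. HK2 at 2.79, SLC2A3 at 2.17, SLC2A1 at 1.76 and HK1 at 0.82 are filled, and the other 3 lie below 0.

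Of the 9 genes, 7 were tested, 4 were called higher, none was called lower, 3 did not pass and 2 lay under the filter. Without overlap between groups on the CPM scale were 4 higher and 2 lower of these genes, against 42.2% of all tested rows (22.1% higher and 20.1% lower). DESeq2 gave the same 4 higher and 0 lower calls. In the order of log2 fold changes over all tested rows, from the top, HK2 was at place 95, SLC2A3 at 189, SLC2A1 at 282 and HK1 at 1242. The genes were proposed with results of these libraries known, so their count is a description.

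Levels per length, which can be compared between genes, were as follows. In shCtrl the mean FPKM was 21.6 ± 4.48 for SLC2A3, 19.8 ± 3.10 for HK1, 17.2 ± 1.61 for HK2, 16.1 ± 3.08 for SLC2A1 and 10.9 ± 2.99 for ADPGK (SD, n = 3 each). The ranges of the first 4 overlapped each other, so their order was within the spread. In shTFAM the mean FPKM was 111 ± 49.4 for HK2, 91.2 ± 36.0 for SLC2A3, 51.2 ± 14.5 for SLC2A1, 32.9 ± 2.72 for HK1 and 9.03 ± 0.439 for ADPGK (SD, n = 3 each). There HK2 and SLC2A3 overlapped in range, whereas SLC2A1 lay below both, and HK1 just below SLC2A1. SLC2A6 (2.70 ± 0.341 and 1.9 ± 0.372 FPKM in shCtrl and shTFAM) and SLC2A8 (2.11 ± 0.188 and 1.53 ± 0.0696 FPKM) were next in both groups (SD, n = 3 each).

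The summed FPKM of the 5 transporters was 41.3, 48.3 and 38.0 in shCtrl and 126, 110.0 and 201.0 in shTFAM. That of the 4 kinases was 49.9, 41.4 and 53.7 in shCtrl and 115, 132 and 213 in shTFAM. Both sums were higher in each shTFAM library than in any shCtrl library, and shTFAM 3 was highest in both. Adding the other 9 SLC2A genes raised the mean transporter sum from 42.5 to 45.0 FPKM in shCtrl and from 146 to 148 in shTFAM.

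Each gene's share of its family's summed FPKM does not depend on how libraries are scaled. Shares were compared by two-sided exact permutation tests over the 6 libraries, in which 3 against 3 cannot give a p below 0.1, and 8 shares were compared, which are tied to each other within a family. HK2 made up 32.1, 40.2 and 35.5% of kinase FPKM in shCtrl and 65.9, 68.5 and 78.6% in shTFAM. The mean share went from 35.9 ± 4.06% to 71.0 ± 6.76% (SD, n = 3 each; exact permutation p 0.1). HK1, though higher in FPKM, took a smaller share, going from 40.8 ± 1.3% to 22.6 ± 5.14% (SD, n = 3 each; exact permutation p 0.1). ADPGK went from 22.3 ± 4.28% to 6.25 ± 1.6%, and HKDC1 from 1.03 ± 0.663% to 0.118 ± 0.026% (SD, n = 3 each; exact permutation p 0.1 for both). Without shCtrl 2 the difference in HKDC1 share was -0.57 in place of -0.917 percentage points. For each of the 4 kinases the groups did not overlap in share. As the shares of a family add up to the whole, a larger HK2 share can lower the others without any fall in their levels. On the CPM scale the groups overlapped for ADPGK and HKDC1. In FPKM, HKDC1 stood at 0.482, 0.717 and 0.219 in shCtrl and at 0.121, 0.195 and 0.214 in shTFAM. The smaller HKDC1 share thus came with a lower mean level, though shCtrl 3 and shTFAM 3 were close.

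Among the transporters, SLC2A1 and SLC2A3 kept the larger part in each library. SLC2A3 made up 57.7, 51.0 and 43.4% of transporter FPKM in shCtrl and 55.9, 63.8 and 66.0% in shTFAM (exact permutation p 0.2). SLC2A1 made up 30.9, 39.1 and 43.5% in shCtrl and 41.1, 33.0 and 32.5% in shTFAM (exact permutation p 0.7). In both genes the groups overlapped in these shares. With all 14 SLC2A genes in the sum, the SLC2A3 share differed by 12.9 in place of 11.2 percentage points (exact permutation p 0.1). That of SLC2A1 differed by -0.83 points (exact permutation p 0.9). As 3 against 3 cannot give an exact permutation p below 0.1, neither sum can show if the SLC2A3 share rose beyond the spread of the libraries. SLC2A6 went from 6.46 ± 1.40% to 1.44 ± 0.605% and SLC2A8 from 4.99 ± 0.594% to 1.13 ± 0.364% (SD, n = 3 each; exact permutation p 0.1 for both), without overlap. Here too a larger sum, 146 against 42.5 FPKM on average, lowers a share without any fall in level. Neither gene was called lower (edgeR adjusted p 0.157 and 0.117).

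**Figure D3:**
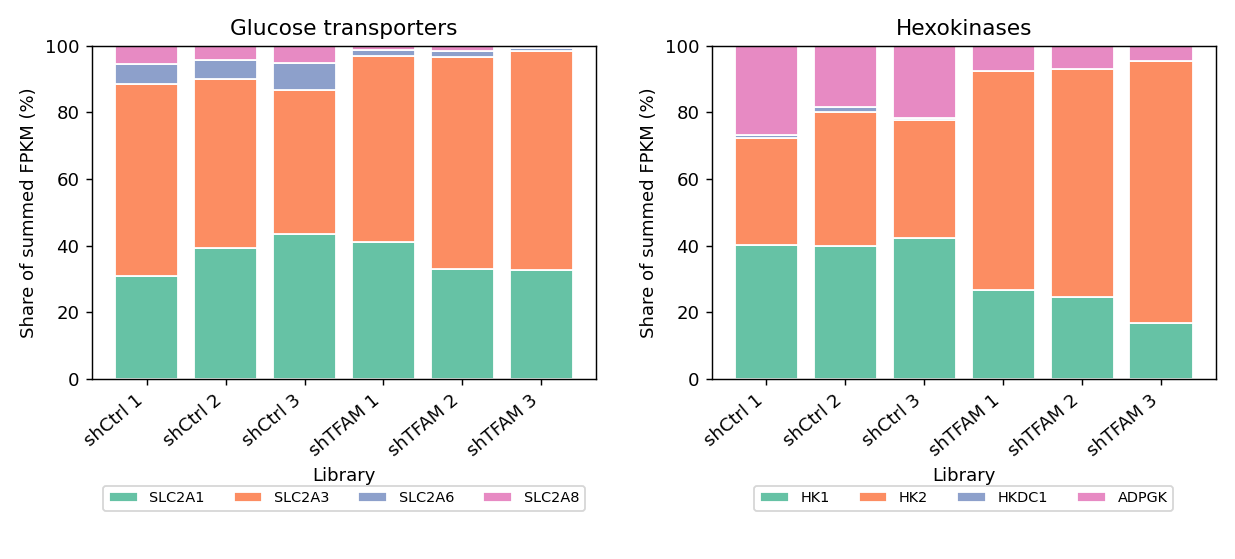
Stacked bars of each gene's share (%) of its family's summed FPKM in every library, transporters on the left and kinases on the right. HK2 goes from 32.1 to 40.2% in shCtrl libraries to 65.9 to 78.6% in shTFAM libraries, whereas SLC2A1 and SLC2A3 divide the transporter sum in overlapping proportions in both groups.

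Ratios between genes of a family were taken in each library, and 6 pairs were compared. The log2 ratio of HK2 to HK1 was -0.33, 0.011 and -0.25 in shCtrl and 1.31, 1.48 and 2.23 in shTFAM. HK2 thus stood near HK1 in each shCtrl library and above it in each shTFAM library, a 3.63-fold difference in the mean ratio (exact permutation p 0.1, n = 3 each). The log2 ratio of HK1 to ADPGK went from 0.89 ± 0.277 to 1.86 ± 0.0502 (SD, n = 3 each; exact permutation p 0.1). That of HK2 to HKDC1 went from 5.35 ± 0.986 to 9.25 ± 0.379 (SD, n = 3 each; exact permutation p 0.1), and rests on the few HKDC1 counts given above.

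The log2 ratio of SLC2A1 to SLC2A3 was -0.90, -0.38 and 0.00060 in shCtrl and -0.44, -0.95 and -1.02 in shTFAM, with overlapping groups (exact permutation p 0.2, n = 3 each). That of SLC2A1 to SLC2A8, a surface against an intracellular transporter, went from 2.91 ± 0.380 to 5.03 ± 0.478 without overlap (SD, n = 3 each; exact permutation p 0.1). The intracellular SLC2A6 and SLC2A8 differed by a log2 ratio of 0.36 ± 0.311 in the control libraries and 0.30 ± 0.231 in the others (SD, n = 3 each; exact permutation p 0.9). A ratio to SLC2A2 could not be formed, as it had no reads.

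**Figure D4:**
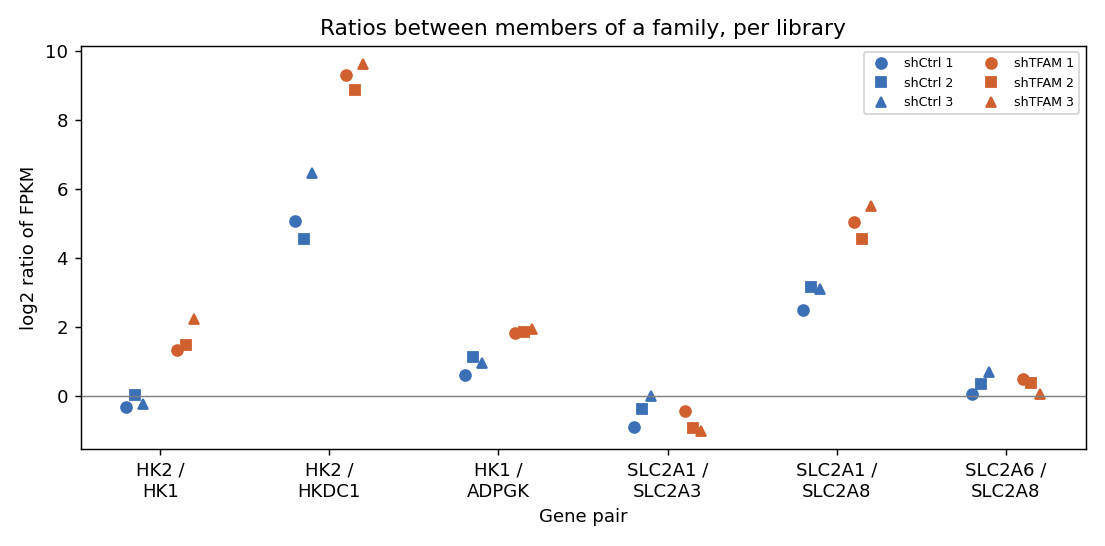
log2 ratio of FPKM between 2 genes of a family in each library, shCtrl in blue and shTFAM in orange, with symbols for replicates. The groups are apart for HK2 to HK1, HK2 to HKDC1, HK1 to ADPGK and SLC2A1 to SLC2A8, and overlap for SLC2A1 to SLC2A3 and SLC2A6 to SLC2A8.

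Rows nearest in pattern to the 4 called genes were found by the root mean square difference of log2 CPM over the 6 libraries, each row being set relative to its shCtrl mean, among 6590 rows of at least 5 FPKM. Those nearest to HK2 were NDRG1 (0.117 log2 units) and BNIP3 (0.130), a stress-response gene and a mitophagy receptor, both known HIF targets. Whether HIF had a part in this likeness was not tested. SPAG4 (0.130) and LOXL2 (0.223), which encodes a lysyl oxidase of the extracellular matrix, were nearest to SLC2A3, and HYI (0.191) and S100A3 (0.208) to SLC2A1. HK1 was nearest to PPP2R2D (0.0616), a phosphatase regulatory subunit, and to the read-through row SLX1A-SULT1A3 (0.0664). These 2 rows were called higher (edgeR adjusted p 0.0149 and 0.0173), but not without shCtrl 1, shCtrl 2 or shTFAM 2, nor SLX1A-SULT1A3 without shTFAM 3 (edgeR adjusted p 0.0501 to 0.0604). Rows named here were picked for their likeness to a called gene over the same libraries, so such calls follow from the choice.

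Other genes that carry glucose or act on glucose 6-phosphate were taken from lists of known function. Of 9 further SLC2A genes, 2 were abundant enough to be tested. SLC2A11, a fructose and glucose transporter, fell from 1.06 to 0.674 FPKM (log2 fold change -0.56, edgeR adjusted p 0.0407), a call that ended when any 1 library was left out (edgeR adjusted p 0.0677 to 0.109), and also with low rows kept or in limma. SLC2A14 stood at 0.464 and 0.813 FPKM (0.89, edgeR adjusted p 0.182). Of 6 sodium-coupled and SWEET transporters, SLC50A1 alone was tested and did not pass (25.3 and 21.1 FPKM, -0.17, edgeR adjusted p 0.69), though it passed as lower with shCtrl 3 and shTFAM 3 left out (-0.67, edgeR adjusted p 0.0167). HK3, a further hexokinase, had no read.

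Of 5 enzymes that use glucose 6-phosphate, 2 rose and 3 did not pass, where 11.3% of all tested rows were called higher. Both calls ended when certain single libraries were left out, though the fold changes stayed above 0. GPI, which opens glycolysis after the hexokinase step, stood at 26.6, 26.1 and 36.2 FPKM in shCtrl and 57.5, 53.0 and 98.7 FPKM in shTFAM (1.33, edgeR adjusted p 0.0207). PGM1, which leads to glycogen, rose from 25.4 to 33.9 FPKM (0.50, edgeR adjusted p 0.0278). Leaving out shCtrl 1 or shCtrl 2 took the edgeR adjusted p of GPI to 0.0662 or 0.0681, with log2 fold changes of 1.24 or 1.25. PGM1 was no longer called if either of these libraries, shTFAM 2 or shTFAM 3 was left out, with edgeR adjusted p between 0.0567 and 0.0893. Its log2 fold change was then 0.39 to 0.52. With 1 library left out, 1148 to 2068 of all rows were called, against 2630 with none left out.

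Genes that release glucose from glucose 6-phosphate did not pass: of 4, G6PC and G6PC2 had no read, G6PC3 stood at 8.85 and 9.68 FPKM (0.21, edgeR adjusted p 0.246) and SLC37A4 at 4.63 and 3.11 FPKM (-0.49, edgeR adjusted p 0.112). None of the 3 VDAC genes, whose channels are the docking site of HK1 and HK2 on mitochondria, passed. VDAC1, the most abundant, stood at 79.4 and 92.4 FPKM (0.31, edgeR adjusted p 0.247), with a 95% interval of -0.096 to 0.71 that lies below that of HK2.

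Of 8 genes that act in the trafficking of glucose transporters, 2 fell and 6 did not pass (median log2 fold change -0.13, against -0.015 over all tested rows, of which 6.59% were called lower). TXNIP, an arrestin relative that promotes removal of SLC2A1 from the cell surface, stood at 41.0, 45.1 and 59.1 FPKM in shCtrl and 7.27, 15.3 and 7.25 FPKM in shTFAM. Every shTFAM library was below every shCtrl library, and shTFAM 2 was the highest of its group. TXNIP changed by -2.20 on the log2 scale, with SE 0.319 and an edgeR adjusted p of 0.00648, and stayed called under every alternative run. TBC1D4, which holds back SLC2A4 vesicles in muscle and fat, fell from 10.1 to 6.81 FPKM (-0.49, edgeR adjusted p 0.0251), a call that ended without any 1 library other than shCtrl 3 (edgeR adjusted p 0.0533 to 0.073).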

How the data were processed

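The deposited table has 60612 rows of Ensembl genes and gives, per the file headers, counts and FPKM for each of the 6 libraries, made by the authors. Per the submitters' processing notes, the builds hg38 and mm8 and the tools StringTie 1.3.4d, HISAT2 2.0.4, Bowtie 0.12.2 and cutadapt 1.9 were used, in roles not given in the sources used here, nor is the strand setting of the counting. A count of 0 is given as an FPKM of at most 1e-04, treated here as 0 in family sums and shares and kept as given in sums of marker genes. Rows averaging at least 0.5 FPKM over the 6 libraries (14708) were tested with edgeR 4.0.16 (R 4.3.3) on the counts by its quasi-likelihood test, with TMM scaling and Benjamini-Hochberg adjustment over tested rows. Standard errors came from the estimate and the square root of its F statistic. The script was tested on simulated data. Replicates differed beyond sampling noise (lowest chi-square per degree of freedom 41.9). Alternatives used DESeq2 1.42.0 and limma 3.58.1, the latter on log2(FPKM + 1) or log2(FPKM + 0.1), other filters and scalings, and left-out libraries. The genes and lists were chosen with earlier results of these data known. Named genes are the 9 members, TFAM, called genes of each list or its most abundant gene, and the 2 rows nearest in pattern to each called member. SLC37A4, SLC2A14 and the marker genes were named after their values were seen. Some genes of the lists are not reported here.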

Additional observations from a re-analysis of the deposited data

How the results depend on the processing

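The 4 higher and 0 lower calls among the 9 genes were the same under all 16 alternatives, with log2 fold changes from 2.33 to 3.00 for HK2, 1.59 to 2.33 for SLC2A3, 1.51 to 1.96 for SLC2A1 and 0.69 to 0.92 for HK1. SLC2A6, SLC2A8 and ADPGK stayed below 0 and uncalled wherever they were tested, SLC2A8 with an adjusted p down to 0.0591 when libraries were scaled to counts outside mtDNA. Under that scaling the median change over all rows was -0.15 in place of -0.015 (log2), and gave 1198 higher and 1771 lower rows against 1661 and 969. Library totals gave 1353 and 1266, upper quartile factors 1387 and 1339, limma 1278 and 1337 (pseudocount 1) or 1264 and 1317 (0.1), and DESeq2 2171 and 1666. Leaving out each library in turn gave 1148 (without shCtrl 2) to 2068 (without shCtrl 3) called rows against 2630. It was 1263 without shCtrl 1, 1752 without shTFAM 1, 1372 without shTFAM 2 and 1408 without shTFAM 3. The HK2 share differed by 31.2 to 37.6 percentage points over the alternatives. The difference in SLC2A1 share, -2.32 points, ranged from -5.76 to 0.487 with 1 library left out, positive without shCtrl 3. That in the log2 ratio of SLC2A6 to SLC2A8, -0.057, ranged from -0.21 to 0.10 and was positive without shCtrl 3 (0.10) or shTFAM 3 (0.071). With 1 library left out, exact permutation p cannot fall below 0.2, so these tests say nothing of stability. No paired analysis was possible because the labels give the groups no shared replicate numbers.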
